A study of Mus musculus with 9 samples.

Results

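Voltage-gated ion channel genes encode the pores and auxiliary subunits through which sodium, calcium and potassium cross the membrane of excitable cells and glia. The set was chosen by gene symbol, taking sodium channel (Scn), calcium channel (Cacna, Cacnb, Cacng), potassium channel (Kcn) and hyperpolarization-activated channel (Hcn) names and leaving out the noncoding RNA Kcnq1ot1. This gave 84 of the 18329 genes in the deposited expression table. Of these, 82 are annotated as protein coding and 2, Kcnmb4os1 and Kcnmb4os2, as RNAs antisense to Kcnmb4. The label is broader than the mechanism: by the same symbols the set also holds inward rectifier, tandem-pore and calcium-activated potassium channels and the auxiliary subunits of AMPA receptors called TARPs, several of which are not gated by voltage.

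The RNA came from neuroglial progenitors that line the third ventricle of the brain, a germinal region called the TVZ, in untreated mice at postnatal day 1. The mice were of the Nestin-CFPnuc line on a C57/BL6 background, in which the promoter of Nestin, an intermediate filament gene of neural progenitors, drives nuclear cyan fluorescent protein (CFP); no other allele is named in the labels, and all 3 groups carry the reporter. Flow sorting on CFP and on the surface protein CD133 gave 3 groups of 3 libraries, named CD133+Nestin+, Nestin+ and CD133+ here. It is not stated in the labels whether cells sorted on 1 marker lacked the other, or whether libraries came from separate animals. Each library carries a sort number from 1 to 3, which is also its passage number and is used here as the replicate number. P-values therefore measure the spread between these libraries, which may be technical.

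Sodium and calcium channels depolarize a cell, and most potassium channels return it toward rest. Pore-forming alpha subunits carry the current, and auxiliary beta, gamma, delta and cytoplasmic subunits set where and how readily the pore opens. In the developing brain, glia and their progenitors are known for high resting potassium conductance through inward rectifier and tandem-pore channels, while oligodendrocyte precursors and young neurons carry voltage-gated sodium, calcium and A-type potassium currents.

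Levels are in CPM, reads scaled to a common library total, a unit inferred from the deposited values. Changes are differences of log2(CPM + 1) with their SE; this scale compresses the changes of genes with few reads. A gene was called when its limma adjusted p was below 0.05 over 16143 genes with at least 1 CPM in at least 3 libraries. Of the 84 channel genes, 78 passed that filter. Calls are from a fit that leaves out the replicate number, unless the replicate block is named. In these bulk samples, fewer cells of a type and less RNA per cell cannot be told apart.

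RefSeq promoter sequences (GRCm38.p6, the build of the deposited data) were matched by symbol for 59 of the 84 genes. In the 250 bases before each transcription start, the median number of CpG pairs was 9 over 87 channel gene windows and 6 over all 32851 windows. The 32851 windows belong to 27025 genes and were not limited to genes of the expression table. The 5 matched genes that were called higher in Nestin+ than in CD133+ cells had 15 to 31 CpG pairs, with a median of 18. The 6 that were lower had 1 to 23, with a median of 9, so the ranges overlapped. The 3 windows of such genes that touched no annotated exon are shown 5′ to 3′ on the strand of the gene, with CpG pairs in capitals, because they show genes of both directions and the lowest CpG count: Kcnip2, higher in Nestin+ cells, holds 15 pairs, and Kcnj2 and Kcnmb1, both lower in Nestin+ cells, hold 14 and 1. They lie at chr19:45816064-45816313 on the minus strand, chr11:111065914-111066163 on the plus strand and chr11:33962763-33963012 on the plus strand.
Kcnip2: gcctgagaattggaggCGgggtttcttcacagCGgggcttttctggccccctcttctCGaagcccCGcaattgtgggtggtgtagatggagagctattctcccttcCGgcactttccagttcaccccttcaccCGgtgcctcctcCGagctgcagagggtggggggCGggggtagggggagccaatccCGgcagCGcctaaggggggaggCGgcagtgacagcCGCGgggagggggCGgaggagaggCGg
Kcnj2: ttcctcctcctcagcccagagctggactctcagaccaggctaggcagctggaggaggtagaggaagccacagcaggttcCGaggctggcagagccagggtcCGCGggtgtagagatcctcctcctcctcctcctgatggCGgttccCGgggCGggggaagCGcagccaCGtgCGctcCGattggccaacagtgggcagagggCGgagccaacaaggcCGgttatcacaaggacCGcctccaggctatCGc
Kcnmb1: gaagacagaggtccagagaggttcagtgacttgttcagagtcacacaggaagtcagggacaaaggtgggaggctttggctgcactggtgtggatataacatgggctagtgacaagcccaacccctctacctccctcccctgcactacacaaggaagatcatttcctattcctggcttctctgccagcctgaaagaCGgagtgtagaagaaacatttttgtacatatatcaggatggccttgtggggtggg

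Short motifs were searched on both strands of these windows. The repressor element bound by REST, a silencer of neuronal genes, was searched by its consensus of 18 fixed letters with at most 4 mismatches. It was found in 1 of the 87 channel gene windows (1.15%), that of Kcnip3, and in 0.469% of all windows. The forkhead motif GTAAACA was in 0 channel gene windows and 3.17% of all windows. The TATA motif TATAAA was in 3 (3.45%) and 12.4%, and the SOX motif ACAATG in 5 (5.75%) and 10.7%. The E-box CAGATG was in 11 (12.6%) and 14.4%, and the X-box-like motif GTTGCCA in 3 (3.45%) and 3.66%. These shares were not adjusted for base composition: the median share of G and C was 60% in channel gene windows and 52.4% in all windows. A match is a run of letters, not a site shown to be bound, and the windows of 25 genes were not matched, among them Scn3a and Cacna1h.

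The libraries followed their labels for the sort markers. Prom1, which encodes CD133, ranged over 146 to 182 CPM in CD133+, 39.3 to 58.1 in Nestin+ and 116 to 181 in CD133+Nestin+ libraries, and Nes over 39.5 to 57.3, 157 to 195 and 172 to 212. Markers of other cells moved with the groups. Given in the order CD133+, CD133+Nestin+, Nestin+, the summed markers of microglia and macrophages reached 1322 to 3692, 100.2 to 497 and 86.7 to 184 CPM, those of endothelium 330 to 648, 26.9 to 35.6 and 14.5 to 24.7, and those of mural cells and fibroblasts 1029 to 1957, 166 to 254 and 255 to 327. The mural list holds Cspg4, which is also in the oligodendrocyte precursor list and averaged 33.8, 40.7 and 167 CPM. Without it, a choice made after seeing the data, the mural and fibroblast sums were 1003 to 1901, 144 to 234 and 122 to 143. Ependymal and motile cilia markers summed to 1670 to 3300, 1476 to 1974 and 321 to 410 CPM. Oligodendrocyte precursor markers summed to 159 to 368, 442 to 1122 and 1506 to 2116 CPM, neuronal markers to 210 to 286, 297 to 382 and 486 to 619, and markers of astrocytes and radial glia to 3912 to 11119, 6928 to 15296 and 12816 to 22959. No marker in these lists was at or under 3 reads in all libraries of a group. CD133+Nestin+ replicate 2 stood apart, at -108 on the second principal component of all genes against -19.3 to 57.1 for the others.

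All 84 channel genes were listed above 0 in every library, the lowest at the level of 1 read, and their summed level was higher in Nestin+ than in CD133+ libraries without overlap. The 84 genes summed to 884 to 1039 CPM in CD133+ libraries, 1009 to 1228 in CD133+Nestin+ libraries and 1222 to 1418 in Nestin+ libraries. The CD133+Nestin+ libraries overlapped both other groups. Averaged over the 9 libraries, 24 genes had at least 10 CPM, 51 had 1 to 10 and 9 had less than 1, and 6 genes made up 47.0% of the sum.

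Per kilobase of annotated exon, the scale on which genes can be compared, auxiliary subunits and glial potassium channels led. Kcne1l, a single-pass auxiliary subunit of potassium channels, had a mean level of 105 CPM per kilobase. Kcnip3, a calcium-binding partner of the A-type Kcnd pores that is also known as a transcriptional repressor, had 25.7. The inward rectifiers Kcnj16 and Kcnj10, which form joint channels in glia, had 20.2 and 13.0 CPM per kilobase. The TARP Cacng4 had 15.6, the stretch-sensitive tandem-pore channel Kcnk2 had 12.8 and the A-type pore Kcnd2 had 10.02. Sodium channel pores were lower, from 1.49 CPM per kilobase for Scn8a to 0.408 for Scn9a. The order of neighbours in this ranking was not tested.

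**Figure D1:**
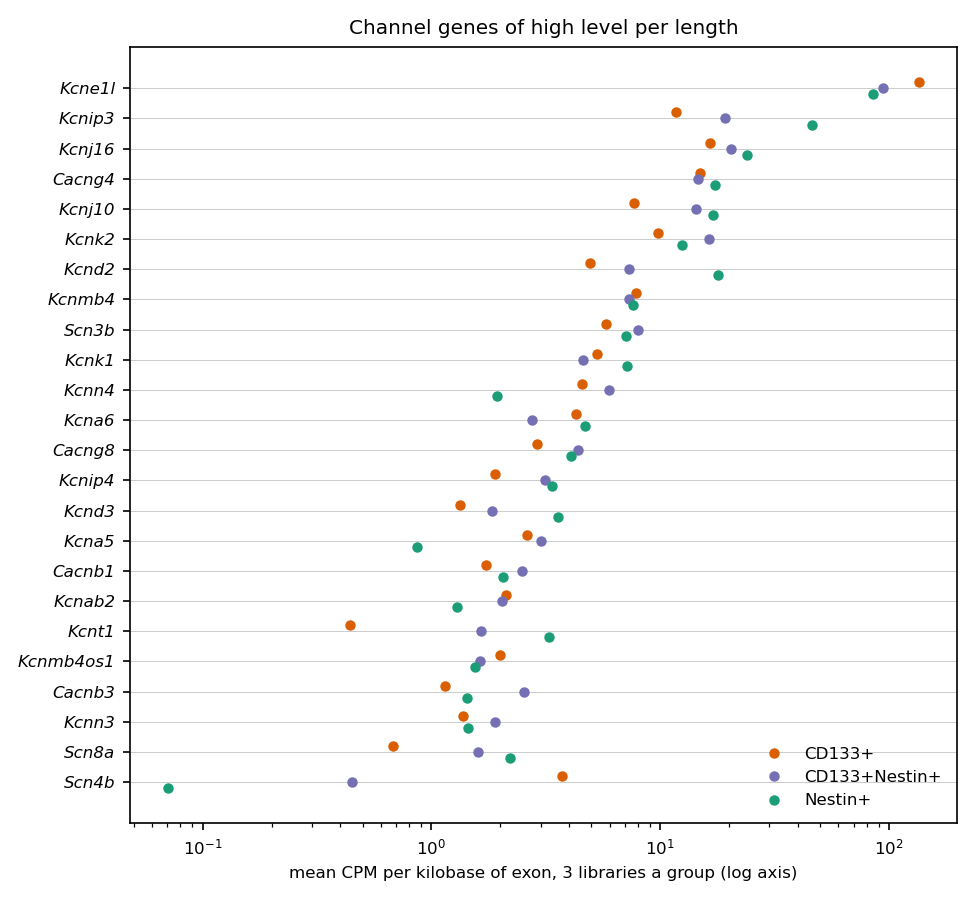
Mean CPM per kilobase of exon (log axis) in the 3 libraries of each sorted group, for 24 channel genes of high mean level per length. Kcne1l is highest in all 3 groups, and Kcnip3, Kcnd2 and Kcnt1 have their groups spread in the order CD133+, CD133+Nestin+, Nestin+.

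Between Nestin+ and CD133+ cells, 14 of 78 tested channel genes were called (17.9%), against 11.9% of all tested genes. In Nestin+ cells 8 were higher, among them the sodium channel pore Scn3a, the calcium channel pore Cacna1h, the potassium channel pores Kcna2, Kcnd3, Kcnh8 and Kcnma1, and the auxiliary subunit Kcnip2. These are 10.3% of the channel genes, against 2.45% of all genes. Another 6 were lower in Nestin+ cells: the auxiliary subunits Scn4b and Kcnmb1, the calcium channel pore Cacna1s, the inward rectifiers Kcnj2 and Kcnj5, and the tandem-pore channel Kcnk7. These are 7.69%, against 9.42% of all genes. Under quantile normalization the split was 12 higher and 5 lower, against 4.31% and 8.49% of all genes, and that scaling moved the median of all genes by 0.15 on the log2 scale (0.13 under median centring). The median channel gene was 0.42 higher in Nestin+ cells and the median of all tested genes was -0.02, with 58 channel genes above 0 and 20 below (74.4% above, 48.7% for all genes).

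With the replicate number as a block, 26 channel genes were called in this comparison, 17 higher and 9 lower, including each of the 14; the share of all genes was 19.2%. The groups did not overlap for 32 channel genes (41.0%), against 33% of all genes. Over the 3 groups, limma's F test called 9 channel genes, or 11.5%, against 9.5% of all genes: Cacna1s, Kcna2, Kcnd3, Kcnj2, Kcnj5, Kcnma1, Kcnmb1, Scn3a and Scn4b. With the block the F test called 22 (28.2%), against 16.5% of all genes. The count of 14 was 22 without CD133+Nestin+ replicate 2 (17.3% of all genes were then called), 8 without CD133+ replicate 2 (6.53%), and 9 without CD133+ replicate 3 (8.19%) or Nestin+ replicate 2 (7.32%). Whichever library was left out, 8 calls held: Cacna1s, Kcna2, Kcnd3, Kcnj2, Kcnj5, Kcnma1, Scn3a and Scn4b.

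**Figure D2:**
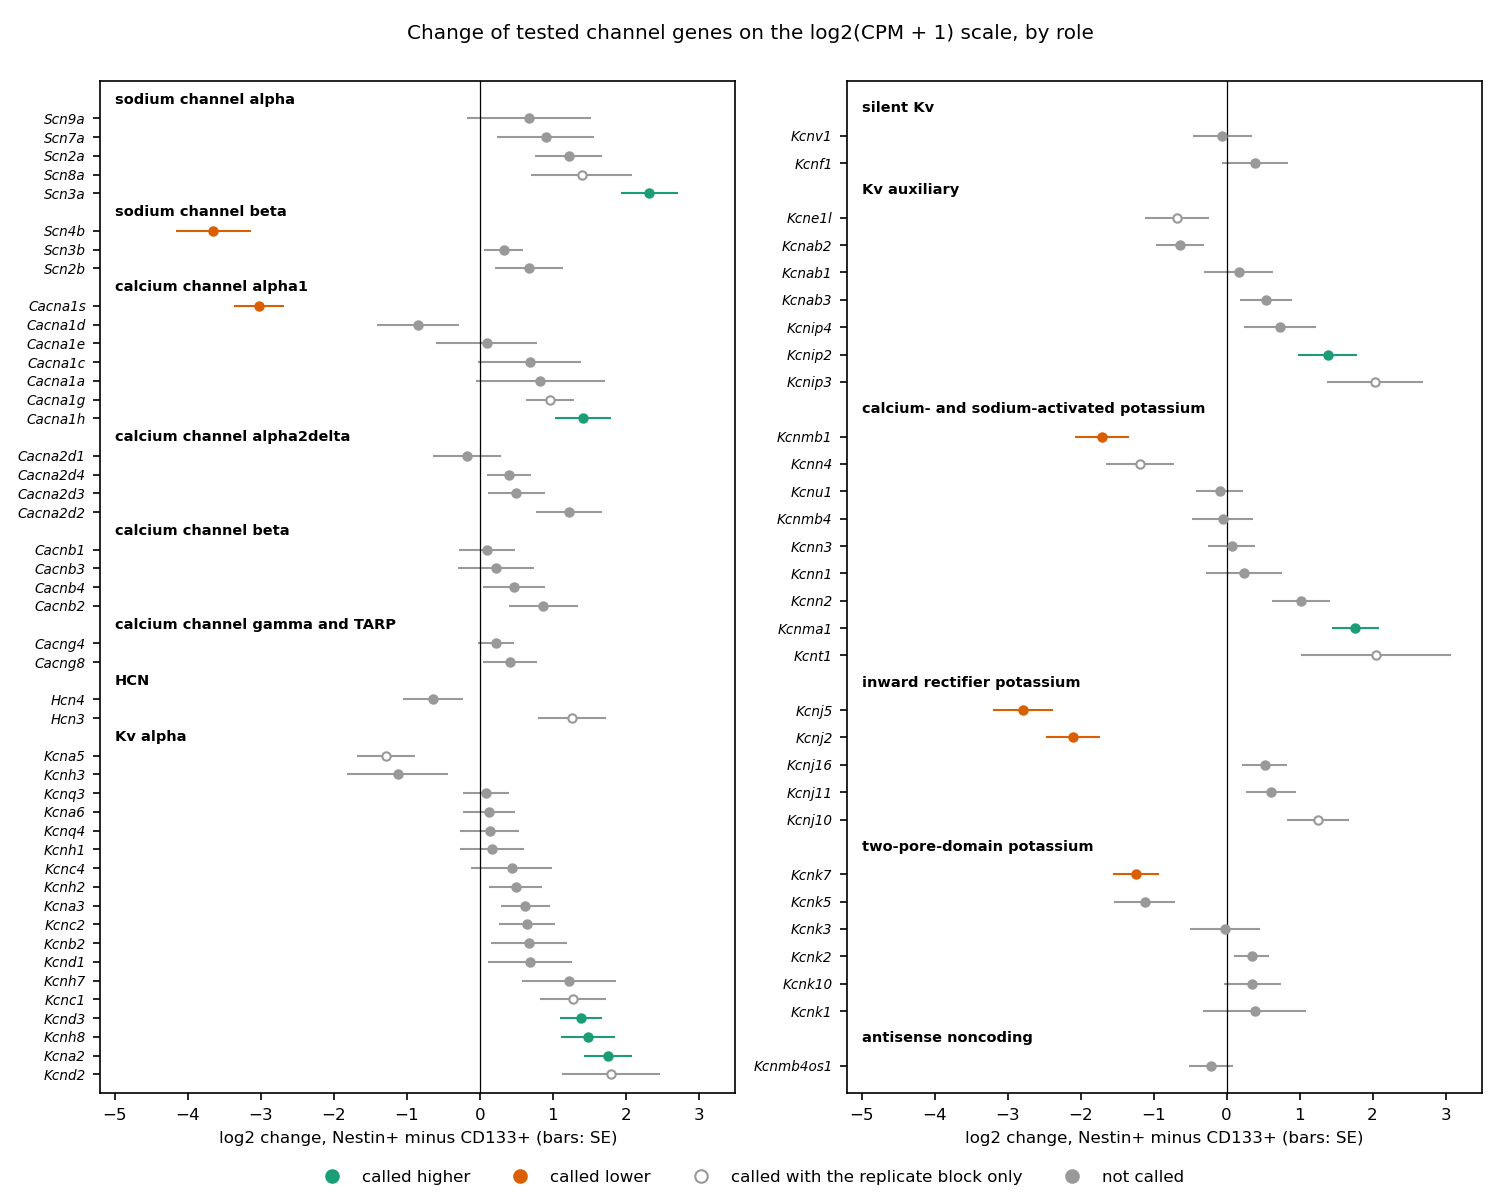
Log2 difference of Nestin+ minus CD133+ libraries, with SE bars, for 75 tested channel genes in role groups. Filled coloured points are 7 genes called higher and 6 called lower, and open points 11 called with the replicate block only; the largest differences are those of Scn3a upward and Scn4b downward.

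CD133+Nestin+ cells differed less from either single-marker group in the number of calls. Against CD133+ cells, 2 of 78 channel genes were called (2.56%), against 2.42% of all genes. Both, Scn4b and Kcnj2, were lower, against 2.12% of all genes. By limma 0 were higher, against 0.297% of all genes, and 7 had an unadjusted p below 0.05 in that direction. The replicate block called 3, adding Kcnj10 as higher, against 4.81% of all genes, and 16 (20.5%) did not overlap, against 17.5%. Against Nestin+ cells, 2 were called (2.56%; 3.13% of all genes). Both, Cacna1s and Kcnmb1, were higher, against 2.87% of all genes. By limma 0 were lower, against 0.254%, and 12 had an unadjusted p below 0.05 in that direction. The block called 6, adding Kcna5, Kcnj5 and Kcnn4 as higher and Kcnc1 as lower, against 6.09% of all genes. Here 23 (29.5%) did not overlap, against 17.3%. The 3 comparisons share libraries, so they are not independent of each other.

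In 5 channel genes (6.41%) the 3 groups stood in rising order from CD133+ through CD133+Nestin+ to Nestin+ with no overlap, against 0.613% of all genes: Scn3a, Kcna2, Kcnd3, Kcnh8 and Kcnma1. In 2 (2.56%), Scn4b and Kcnj5, they stood in falling order, against 1.98%. The plot of called genes by library shows these orders.

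**Figure D3:**
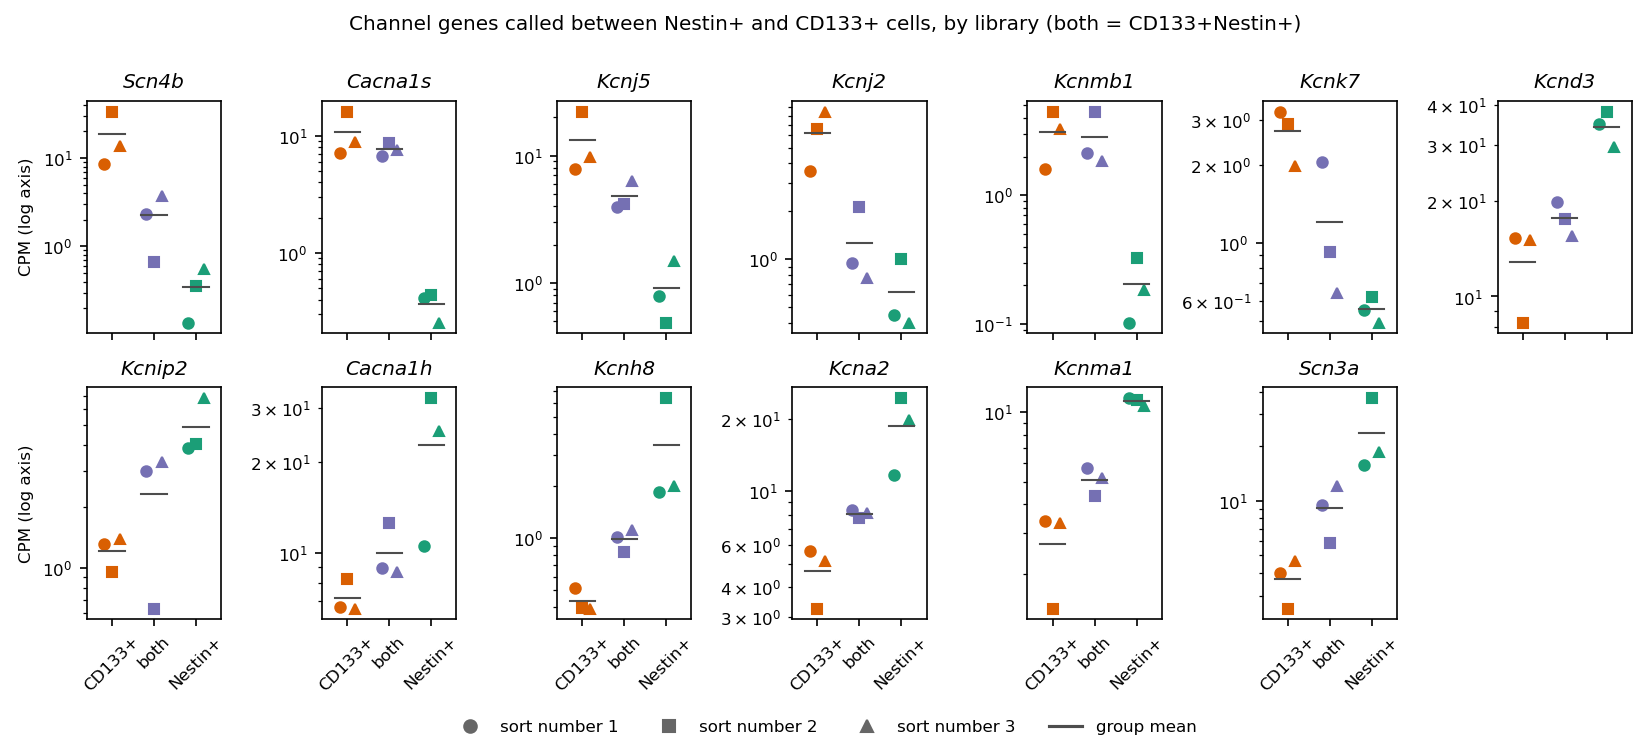
CPM (log axis, scaled separately for each gene) of 13 channel genes called between Nestin+ and CD133+ cells, with 1 point a library, its shape giving the sort number, and a line at each group mean of 3 libraries. For every gene shown, the 3 Nestin+ points lie all above or all below the 3 CD133+ points.

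Among sodium channel pores, Scn3a, the pore known as the fetal and neonatal form in brain, rose in Nestin+ cells. Scn3a (chromosome 2, 65457118 to 65567627, GRCm38) was at 3.98, 2.53 and 4.64 CPM in CD133+ replicates 1 to 3, at 9.51, 5.85 and 12.1 in CD133+Nestin+ and at 15.7, 37.0 and 18.5 in Nestin+ libraries. Each Nestin+ library lay above every CD133+Nestin+ library, and each of those above every CD133+ library. Nestin+ exceeded CD133+ cells by 2.32 ± 0.39 (limma adjusted p = 0.00293). From CD133+ to CD133+Nestin+ it was 1.08 ± 0.39, with an adjusted p of 0.251 in limma.

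Scn8a, the main sodium channel of mature axon initial segments and nodes, had the highest mean of the sodium pores. It was at 5.22, 14.6 and 12.4 CPM in CD133+ libraries, 8.39, 44.1 and 23.3 in CD133+Nestin+ libraries and 9.34, 54.4 and 40.3 in Nestin+ libraries. The groups overlapped, with both Nestin-bearing libraries numbered 1 below CD133+ replicate 2, and within each number the Nestin+ library was the highest. Between CD133+ and Nestin+ cells a change of 1.40 ± 0.69 had a limma adjusted p of 0.261, and of 0.00591 with the replicate block. Scn2a, Scn7a and Scn9a differed by 1.22 ± 0.46, 0.90 ± 0.67 and 0.67 ± 0.84 and were not called. The 5 sodium pores summed to 18.0 to 39.1 CPM in CD133+ libraries, 36.6 to 55.6 in CD133+Nestin+ libraries and 47.7 to 145 in Nestin+ libraries.

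Of the 3 sodium channel beta subunits, which bind the pore and shape its gating and surface level, 1 moved, and in the opposite direction to Scn3a. Scn4b (chromosome 9, 45138395 to 45154152) was at 8.53, 33.5 and 13.5 CPM in CD133+ libraries, 2.30, 0.663 and 3.76 in CD133+Nestin+ libraries and 0.138, 0.359 and 0.555 in Nestin+ libraries. The 3 groups did not overlap. Scn4b was lower than in CD133+ cells by a log2 change of -3.65 ± 0.51 in Nestin+ (limma adjusted p = 0.00102) and of -2.50 ± 0.51 in CD133+Nestin+ cells (limma adjusted p = 0.0271). The second call was lost without CD133+ replicate 2 or 3, CD133+Nestin+ replicate 2, or Nestin+ replicate 2 or 3 (limma adjusted p of 0.0515 to 0.106), with a pseudocount of 0.1 (0.0787) and with the 6 libraries alone (0.09). Scn3b, the most abundant beta subunit, was at 31.3, 41.0 and 22.5 CPM in CD133+ libraries, 48.3, 33.8 and 48.6 in CD133+Nestin+ libraries and 39.4, 36.5 and 40.6 in Nestin+ libraries, and the groups overlapped. Scn2b differed by 0.67 ± 0.47 between Nestin+ and CD133+ cells and was not called.

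Per kilobase, the order of the beta subunits against the pores differed between the groups in the mean values. In CD133+ libraries Scn4b averaged 3.72 CPM per kilobase and Scn3a 0.298, while in Nestin+ libraries Scn4b averaged 0.0703 and Scn3a 1.91. Scn3b was above both in each group, at 5.78 in CD133+ and 7.11 in Nestin+ libraries.

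Of the 7 calcium channel pores, 1 fell and 1 rose in Nestin+ cells. Cacna1s, the L-type pore best known as the voltage sensor of skeletal muscle (chromosome 1, 136052750 to 136119822), was at 7.14, 16.1 and 8.87 CPM in CD133+ libraries, 6.75, 8.72 and 7.62 in CD133+Nestin+ libraries and 0.416, 0.437 and 0.255 in Nestin+ libraries. Both CD133-bearing groups overlapped, and every Nestin+ library was far below them. Cacna1s was lower in Nestin+ than in CD133+ cells by a log2 change of -3.02 ± 0.34 (limma adjusted p = 0.000299) and higher in CD133+Nestin+ than in Nestin+ cells by 2.66 ± 0.34 (limma adjusted p = 0.00262). Both calls held whichever library was left out. Between CD133+Nestin+ and CD133+ cells the difference was -0.36 ± 0.34 and was not called.

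Cacna1s overlaps the gene Gm37759, and because no source used here says whether counting used strand, reads of the pair could not be separated. Of the markers of muscle, the tissue Cacna1s is best known from, 3 were measured, Myh6, Myh7 and Ttn. They summed to 8.64 to 25.4 CPM in CD133+ libraries, 3.78 to 9.11 in CD133+Nestin+ libraries and 0.517 to 4.99 in Nestin+ libraries. Myh6 and Myh7 fell in Nestin+ cells by a log2 change of -2.21 ± 0.62 and -1.33 ± 0.32, and their part in the Cacna1s result was not tested. All 12 ependymal and cilia markers, like Cacna1s, were below CD133+ cells in Nestin+ cells and higher in CD133+Nestin+ than in Nestin+ cells; their part was not tested either.

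Cacna1h, a low-voltage-activated T-type calcium channel pore (chromosome 17, 25374285 to 25433783), was at 6.65, 8.26 and 6.57 CPM in CD133+ libraries, 8.94, 12.6 and 8.66 in CD133+Nestin+ libraries and 10.5, 32.4 and 25.2 in Nestin+ libraries. The CD133+ libraries lay below all others, and the other 2 groups overlapped. Cacna1h was higher in Nestin+ than in CD133+ cells by 1.41 ± 0.39 (limma adjusted p = 0.0365). The call was lost without any 1 of the CD133+ libraries, CD133+Nestin+ replicate 3, or Nestin+ replicate 2 or 3, with limma adjusted p of 0.0532 to 0.165. Cacna1g, the other T-type pore in the table, differed by 0.96 ± 0.33, with a limma adjusted p of 0.0943, and of 0.0399 with the replicate block.

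Cacna1d, an L-type pore of neurons and endocrine cells, had the highest mean of the calcium pores at 15.7, 24.8 and 16.5 CPM in CD133+ libraries, 5.54, 22.4 and 9.48 in CD133+Nestin+ libraries and 3.95, 20.9 and 11 in Nestin+ libraries. The library numbered 2 was the highest and that numbered 1 the lowest in each group, and the groups overlapped. The remaining pores Cacna1a, Cacna1c and Cacna1e differed by 0.83 ± 0.88, 0.68 ± 0.71 and 0.09 ± 0.69 between Nestin+ and CD133+ cells and were not called.

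Of the 10 tested auxiliary calcium channel subunits, limma called 0 in each of the 3 comparisons, with or without the block, and 1 had an unadjusted p below 0.05, between Nestin+ and CD133+ cells. The alpha2delta subunits, which bring calcium channels to the membrane, had changes from -0.17 for Cacna2d1 to 1.22 for Cacna2d2 between Nestin+ and CD133+ cells. Cacna2d1, the most abundant, was at 3.74, 4.04 and 5.47 CPM in CD133+ libraries, 5.63, 16.8 and 3.82 in CD133+Nestin+ libraries and 3.44, 5.28 and 2.87 in Nestin+ libraries. Its highest value was that of CD133+Nestin+ replicate 2. The cytoplasmic beta subunits ranged from 0.10 for Cacnb1 to 0.87 for Cacnb2. Cacnb4 led them, at 7.07, 15.5 and 6.92 CPM in CD133+ libraries, 7.84, 19.0 and 7.05 in CD133+Nestin+ libraries and 12.4, 17.3 and 10.3 in Nestin+ libraries, with overlapping groups. The TARP Cacng4, a partner of AMPA-type glutamate receptors, was at 60.1, 60.4 and 40.0 CPM in CD133+ libraries, 63.9, 46.6 and 46.9 in CD133+Nestin+ libraries and 63.8, 67.2 and 54.4 in Nestin+ libraries. Its groups overlapped, and the change from CD133+ to Nestin+ was 0.22 ± 0.25.

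Voltage-gated potassium (Kv) pores were the largest role group, with 24 genes, of which 21 were tested. In Nestin+ cells 4 rose, Kcna2, Kcnd3 and Kcnh8 among them, and the median change was 0.65. By limma 0 fell, and 1 had an unadjusted p below 0.05 in that direction. With the replicate block Kcnc1 and Kcnd2 were among those also called higher, and Kcna5 was called lower. The 24 genes summed to 114 to 147 CPM in CD133+ libraries, 131 to 203 in CD133+Nestin+ libraries and 195 to 309 in Nestin+ libraries.

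Kcna2, a delayed rectifier of axons (chromosome 3, 107101146 to 107115005), was at 5.68, 3.25 and 5.14 CPM in CD133+ libraries, 8.36, 7.72 and 8.13 in CD133+Nestin+ libraries and 11.7, 24.4 and 19.8 in Nestin+ libraries. Its 3 groups did not overlap, and the change from CD133+ to Nestin+ was 1.75 ± 0.33 (limma adjusted p = 0.00571). Kcnd3, a pore of the rapidly inactivating A-type current (chromosome 3, 105452330 to 105674002), was at 15.2, 8.28 and 15.0 CPM in CD133+ libraries, 19.8, 17.5 and 15.5 in CD133+Nestin+ libraries and 34.8, 38.1 and 29.4 in Nestin+ libraries. Its groups did not overlap either, though CD133+Nestin+ replicate 3 came close to CD133+ replicate 1, and the change was 1.38 ± 0.29 (limma adjusted p = 0.0089). Kcnd3 overlaps the gene Gm43847, and reads of the pair could not be separated.

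Kcnh8, a pore of the ether-a-go-go-like family (chromosome 17, 52602709 to 52979194), was at 0.514, 0.395 and 0.391 CPM in CD133+ libraries, 1.01, 0.828 and 1.11 in CD133+Nestin+ libraries and 1.86, 6.42 and 2.00 in Nestin+ libraries. The groups did not overlap, and Nestin+ replicate 2 was far above the rest. Nestin+ cells were higher by 1.48 ± 0.37 (limma adjusted p = 0.0247), lost without any 1 of the CD133+ libraries or Nestin+ replicate 2, with limma adjusted p of 0.0567 to 0.0995.

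Kcnd2, the other A-type pore of high level, averaged the most CPM of all Kv pores. It was at 36.1, 10.6 and 29.4 CPM in CD133+ libraries, 77.3, 11.7 and 24 in CD133+Nestin+ libraries and 148, 86.7 and 40.8 in Nestin+ libraries. The Nestin+ libraries lay above all CD133+ libraries but spread widely, with replicate 1 the highest. The change from CD133+ to Nestin+ of 1.80 ± 0.68 had a limma adjusted p of 0.125, and of 0.0169 with the replicate block. Kcnc1 differed by 1.28 ± 0.45, with a limma adjusted p of 0.0285 with the block and of 0.102 without it. Kcna5 differed by -1.29 ± 0.39, with a limma adjusted p of 0.0577 without the block and 0.0138 with it.

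The other 13 tested Kv pores were not called in either fit between these groups. Among those of higher level, Kcna6 was at 25.5 ± 2.34 CPM in CD133+ and 28.0 ± 5.18 in Nestin+ libraries (SD, n = 3). Of the silent Kv subunits, which join other pores but form none alone, Kcnf1 was at 3.88, 1.05 and 1.80 CPM in CD133+ libraries, 3.24, 3.55 and 0.729 in CD133+Nestin+ libraries and 3.85, 2.28 and 2.99 in Nestin+ libraries. Limma called 0 of the 2 silent subunits, Kcnf1 and Kcnv1, in each comparison, and 0 had an unadjusted p below 0.05.

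Among Kv auxiliary subunits, the Kcnip genes encode calcium-binding proteins that attach to Kcnd pores, and Kcnip2 rose with Kcnd3. Kcnip2 (chromosome 19, 45791839 to 45816061) was at 1.31, 0.953 and 1.38 CPM in CD133+ libraries, 3.00, 0.630 and 3.29 in CD133+Nestin+ libraries and 3.88, 4.04 and 6.81 in Nestin+ libraries. The Nestin+ libraries lay above all others, and CD133+Nestin+ replicate 2 was the lowest of all 9. The change from CD133+ to Nestin+ was 1.39 ± 0.41 (limma adjusted p = 0.0496). That call was lost without any 1 of the 3 libraries of either group or without CD133+Nestin+ replicate 3, with limma adjusted p of 0.0529 to 0.187, and ended with a pseudocount of 0.1 (0.0837) and with no filter (0.0569).

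Kcnip3 averaged 41.6 ± 25.6 CPM in CD133+ libraries, 68.2 ± 50.7 in CD133+Nestin+ libraries and 163 ± 90.0 in Nestin+ libraries (SD, n = 3). Its Nestin+ libraries lay above all CD133+ libraries, and the change of 2.04 ± 0.66 had a limma adjusted p of 0.0748, and of 0.0048 with the replicate block. Kcne1l, the most abundant channel transcript, was at 288, 138 and 202 CPM in CD133+ libraries, 223, 79.7 and 134 in CD133+Nestin+ libraries and 171, 75.2 and 149 in Nestin+ libraries. The groups overlapped, and within each number the CD133+ library was the highest. The change of -0.68 ± 0.44 from CD133+ to Nestin+ had a limma adjusted p of 0.418, and of 0.0262 with the block. Kcnip4 and the Kcnab genes, which encode cytoplasmic Kv beta subunits, were not called.

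The large-conductance calcium-activated potassium (BK) channel showed opposite changes in its pore and in 1 of its auxiliary subunits. Kcnma1, the BK pore (chromosome 14, 23289431 to 24014491), was at 3.40, 1.41 and 3.31 CPM in CD133+ libraries, 5.72, 4.34 and 5.19 in CD133+Nestin+ libraries and 11.5, 11.3 and 10.7 in Nestin+ libraries. The 3 groups did not overlap, and the Nestin+ libraries lay within 1 CPM of each other. Kcnma1 was higher in Nestin+ than in CD133+ cells by 1.76 ± 0.33 (limma adjusted p = 0.00474).

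Kcnmb1, the BK beta subunit best known from vascular smooth muscle (chromosome 11, 33963013 to 33973641), was at 1.60, 4.40 and 3.28 CPM in CD133+ libraries, 2.14, 4.48 and 1.84 in CD133+Nestin+ libraries and 0.103, 0.326 and 0.185 in Nestin+ libraries. Both CD133-bearing groups overlapped and every Nestin+ library was below them, with replicate 1 at the level of 3 reads (0.103 CPM). In Nestin+ relative to CD133+ cells it changed by -1.70 ± 0.37 (limma adjusted p = 0.0111), lost without CD133+ replicate 2 (limma adjusted p = 0.0648) or 3 (limma adjusted p = 0.0501). From Nestin+ to CD133+Nestin+ it was 1.61 ± 0.37 (limma adjusted p = 0.0409), lost without CD133+ replicate 3, CD133+Nestin+ replicate 2 or 3, or any 1 of the Nestin+ libraries, with limma adjusted p of 0.0764 to 0.142, and ended with library weights (0.0518) and with the 6 libraries alone (0.0586). Of 9 measured mural and fibroblast markers, 6 were lower and 1 higher in Nestin+ than in CD133+ cells, the latter being Cspg4. Between CD133+Nestin+ and Nestin+ cells Dcn was called higher in CD133+Nestin+ cells, at a mean of 9.78 against 0.280 CPM, and Cspg4 lower. The mural markers Rgs5, Vtn and Pdgfrb averaged 23.1, 22.8 and 42.4 CPM in CD133+Nestin+ libraries against 3.67, 3.72 and 22.1 in Nestin+ libraries and were not called. Without Cspg4 the list summed to 144 to 234 CPM in CD133+Nestin+ and 122 to 143 in Nestin+ libraries. From CD133+ to CD133+Nestin+ libraries 6 of the 9 markers were called lower, with a median change of -2.58. There Kcnmb1 averaged 3.09 and 2.82 CPM. All 12 ependymal and cilia markers were called lower from CD133+ to Nestin+ libraries and higher from Nestin+ to CD133+Nestin+ libraries. From CD133+ to CD133+Nestin+ libraries 1 of them was called, as lower. The part of either list in the Kcnmb1 result was not tested.

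Kcnmb4, the BK beta subunit known from neurons, was the most abundant gene of this family, at 26.2, 31.4 and 20.7 CPM in CD133+ libraries, 38.4, 10.1 and 24.2 in CD133+Nestin+ libraries and 29.2, 19.1 and 27.2 in Nestin+ libraries. Its groups overlapped, and the change from CD133+ to Nestin+ was -0.05 ± 0.41. Kcnmb4 overlaps both antisense RNAs of the set, so its reads and theirs could not be separated. Kcnmb4os1 was at 1.19, 2.31 and 1.42 CPM in CD133+ libraries, 1.43, 1.05 and 1.54 in CD133+Nestin+ libraries and 0.792, 1.67 and 1.38 in Nestin+ libraries and was not called. Per kilobase, Kcnmb4 averaged 7.85 in CD133+ and 7.56 in Nestin+ libraries, Kcnma1 0.159 and 0.657, and Kcnmb1 0.738 and 0.0489.

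Of the remaining calcium- and sodium-activated channels, Kcnn4, an intermediate-conductance channel of blood and microglial cells, averaged 23.3 ± 10.9 CPM in CD133+ libraries, 30.5 ± 12.2 in CD133+Nestin+ libraries and 9.90 ± 5.38 in Nestin+ libraries (SD, n = 3). Its change of -1.19 ± 0.46 from CD133+ to Nestin+ had a limma adjusted p of 0.138, and of 0.0175 with the replicate block. All 14 microglia and macrophage markers were called lower in Nestin+ than in CD133+ cells, and 13 of them also in CD133+Nestin+ cells. From CD133+ to CD133+Nestin+ cells Kcnn4 differed by 0.39 ± 0.46. All 12 ependymal and cilia markers were called lower from CD133+ to Nestin+ and higher from Nestin+ to CD133+Nestin+ cells. Of these 12, 1 was called from CD133+ to CD133+Nestin+ cells, as lower. The part of either list in the Kcnn4 values was not tested. Kcnt1, a sodium-activated channel, averaged 4.18 ± 2.98 CPM in CD133+ and 31.0 ± 30.2 in Nestin+ libraries. It had a change of 2.05 ± 1.02 with a limma adjusted p of 0.27, and of 0.037 with the block. Kcnn1, Kcnn2, Kcnn3 and Kcnu1 had changes of 0.23 ± 0.52, 1.02 ± 0.40, 0.07 ± 0.32 and -0.10 ± 0.32 and were not called.

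The inward rectifiers, which hold the resting potential near that of potassium, split into genes that fell and genes of high level that did not. Kcnj5, a G-protein-gated subunit best known from heart and adrenal gland (chromosome 9, 32314707 to 32344350), was at 7.88, 22.2 and 9.77 CPM in CD133+ libraries, 3.95, 4.17 and 6.33 in CD133+Nestin+ libraries and 0.790, 0.489 and 1.48 in Nestin+ libraries. The 3 groups did not overlap. Relative to CD133+ cells it changed by -2.80 ± 0.41 in Nestin+ cells (limma adjusted p = 0.00134). From Nestin+ to CD133+Nestin+ it was 1.61 ± 0.41, with a limma adjusted p of 0.0656, and of 0.0406 with the replicate block.

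Kcnj2, a strong inward rectifier of muscle and vessel walls (chromosome 11, 111066164 to 111076821), was at 3.57, 6.57 and 8.48 CPM in CD133+ libraries, 0.949, 2.12 and 0.758 in CD133+Nestin+ libraries and 0.447, 1.01 and 0.401 in Nestin+ libraries. The CD133+ libraries lay above all others, and the other 2 groups overlapped. Kcnj2 was lower than in CD133+ cells by a log2 change of -2.11 ± 0.37 in Nestin+ (limma adjusted p = 0.00362) and of -1.65 ± 0.37 in CD133+Nestin+ cells (limma adjusted p = 0.0439). The second call was lost without any 1 library other than CD133+ replicate 1 and CD133+Nestin+ replicate 2, with limma adjusted p of 0.0669 to 0.217. It also ended with a pseudocount of 0.1 (limma adjusted p = 0.107), median centring (0.0674), quantile normalization (0.065) and the 6 libraries alone (0.137). All 4 measured endothelial markers, Pecam1, Cldn5, Flt1 and Kdr, were likewise lower in both Nestin-bearing groups than in CD133+ cells. Other lists went the same way. Of 14 microglia and macrophage markers, 14 were called lower in Nestin+ and 13 in CD133+Nestin+ cells, and of 5 erythroid markers 5 and 4. Of 9 mural and fibroblast markers, 6 were lower in each, with 1 higher in Nestin+ cells. The part of these cells in the Kcnj2 result was not tested.

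Kcnj16 and Kcnj10, the glial pair, were far more abundant. Kcnj16 was at 72.4, 72.2 and 50.9 CPM in CD133+ libraries, 101, 49.996 and 89.0 in CD133+Nestin+ libraries and 113, 77.7 and 90.9 in Nestin+ libraries. The Nestin+ libraries lay above the CD133+ libraries, by little for replicate 2, and the change of 0.52 ± 0.30 was not called. Kcnj10 averaged 41.5 ± 23.6 CPM in CD133+ libraries, 77.4 ± 19.8 in CD133+Nestin+ libraries and 92.2 ± 30.4 in Nestin+ libraries (SD, n = 3). Its change from CD133+ to Nestin+ of 1.25 ± 0.42 had a limma adjusted p of 0.0859, and of 0.00458 with the replicate block, which also called it between CD133+Nestin+ and CD133+ cells (limma adjusted p = 0.0357 with the block). Kcnj11 differed by 0.61 ± 0.35 and was not called.

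Of the 6 tandem-pore channels, which carry background potassium current, 1 fell. Kcnk7, a member not known to carry current on its own (chromosome 19, 5704367 to 5707109), was at 3.23, 2.89 and 1.98 CPM in CD133+ libraries, 2.05, 0.928 and 0.641 in CD133+Nestin+ libraries and 0.550, 0.619 and 0.493 in Nestin+ libraries. The Nestin+ libraries lay below all others. Nestin+ cells differed from CD133+ cells by -1.24 ± 0.31 (limma adjusted p = 0.0257), lost without CD133+ replicate 1 or 2 or any 1 of the Nestin+ libraries, with limma adjusted p of 0.0699 to 0.107. Median centring and quantile normalization also ended it, at limma adjusted p of 0.052 and 0.0684.

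Kcnk2, the most abundant tandem-pore gene, was at 56.4, 42.1 and 46.4 CPM in CD133+ libraries, 67.8, 79.0 and 94.2 in CD133+Nestin+ libraries and 60.6, 53.0 and 71.0 in Nestin+ libraries. The CD133+Nestin+ libraries lay above all CD133+ libraries, with a change of 0.72 ± 0.24 that was not called (limma adjusted p = 0.193). Kcnk5 differed by -1.12 ± 0.42 between Nestin+ and CD133+ cells, and Kcnk1, Kcnk3 and Kcnk10 by 0.38 ± 0.70, -0.02 ± 0.48 and 0.35 ± 0.39, with no call.

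Of the hyperpolarization-activated channels, Hcn3 was at 1.09, 2.27 and 3.86 CPM in CD133+ libraries, 2.97, 7.55 and 6.86 in CD133+Nestin+ libraries and 3.84, 6.75 and 11.2 in Nestin+ libraries. The groups overlapped, and within each number the CD133+ library was the lowest. The change from CD133+ to Nestin+ of 1.26 ± 0.47 had a limma adjusted p of 0.12, and of 0.0123 with the replicate block. Hcn4 differed by -0.65 ± 0.41 and was not called. The genes left out by the filter were Cacng2, Cacng7, Kcna1, Kcnh5, Kcnh6 and Kcnmb4os2, whose highest value in any library ranged from 0.758 to 1.83 CPM.

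Proteins that bind or regulate channels were read from a list of 42 genes, of which 27 were in the table and 26 were tested. In Nestin+ against CD133+ cells 4 of the 26 were called higher and 1 lower, where 2.45% and 9.42% of all tested genes were. Dpp10, which joins Kcnd channels at the membrane, rose by 1.83 ± 0.44 (limma adjusted p = 0.0192), from a mean of 1.05 CPM in CD133+ to 6.13 in Nestin+ libraries. Its close relative Dpp6, at 157 and 99.1 CPM, differed by -0.65 ± 0.31 and was not called. Adam23, which binds LGI proteins at synapses and axons, rose by 2.36 ± 0.31, Fam155a, a subunit of the sodium leak channel, by 1.69 ± 0.41, and Ank2, which anchors channels to the cytoskeleton, by 0.97 ± 0.28. Kctd12, an auxiliary subunit of GABA-B receptors, changed by -1.42 ± 0.26. In CD133+Nestin+ against CD133+ cells Adam23 was called higher and Kctd12 lower, where 0.297% and 2.12% of all tested genes were. Between CD133+Nestin+ and Nestin+ cells limma called 0 of the 26, against 3.13% of all genes, and 3 had an unadjusted p below 0.05. Rest, which encodes the silencer REST, averaged 35.5 CPM in CD133+ and 30.8 in Nestin+ libraries, a change of -0.20 ± 0.25 that was not called.

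Markers of other cell types differed in the same comparison. Of 13 measured oligodendrocyte precursor markers, 10 were higher in Nestin+ than in CD133+ cells, among them Pdgfra at 3.90 ± 0.63, as were 4 of 12 tested neuronal markers, among them Dcx at 2.91 ± 0.48, and 3 of 14 astrocyte and radial glia markers. All 14 microglial, 12 ependymal, 4 endothelial and 5 erythroid markers were lower. The part of these cells in the channel results was not tested.

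In the authors' deposited table of comparisons, 12 of the 84 channel genes had a false discovery rate below 0.05 between Nestin+ and CD133+ cells, against 9.07% of all genes. All 12 are among the 14 called here, with ratios above 1 for 6 and below 1 for 6. The authors' deposited table gave a false discovery rate of 0.104 for Kcnip2, which is called here and not there. Between Nestin+ and CD133+Nestin+ cells the authors' deposited table had 3 channel genes below 0.05, Cacna1s, Kcnj5 and Kcnmb1, against 2.59% of all genes, and between CD133+ and CD133+Nestin+ cells 0, against 0.955%; limma called 2 in the latter comparison, and 13 had an unadjusted p below 0.05.

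Levels of channel genes also differed by library and by sort number, as did those of all genes. CD133+Nestin+ replicate 2 was the highest library for 19 of the 78 tested channel genes and the lowest for 16, against 17.1% and 33.2% of all genes. The share of channel genes was thus above that of all genes for the highest and below it for the lowest. Kcnk1 was at 0.729 CPM there and at 11.3 to 19.6 in the other 8 libraries. Kcnh3 and Kcnc4 had their highest values there, at 13.6 and 8.88 CPM.

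The library numbered 1 was the lowest of its group in all 3 groups for 14 channel genes (17.9%), against 17.0% of all genes. It was the highest in all 3 groups for 10 (12.8%), against 17.7%. The library numbered 2 was the highest in all 3 groups for 14 (17.9%), against 7.18%, and the lowest for 6 (7.69%), against 14.3%. The largest differences of number 1 from the mean of numbers 2 and 3, averaged over groups on the log2(CPM + 1) scale, were -2.45 for Kcnt1, -2.11 for Cacna1a, -1.75 for Scn8a and -1.56 for Cacna1c. In the other direction Kcnd2 stood at 1.47 and Kcnip3 at 1.42. Of 19 channel genes with at least 10 kb of exon, 14 were below 0, with a median of -0.30, and of 59 shorter genes 33 were below 0, with a median of -0.09. The median of all tested genes was 0.03. Across the 78 channel genes, which share the same libraries and are not independent, the difference of number 1 had r = -0.32 with the log2 exon length. The counts by length and this correlation are not given here for all genes, so they are not shown to be particular to channel genes.

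**Figure D4:**
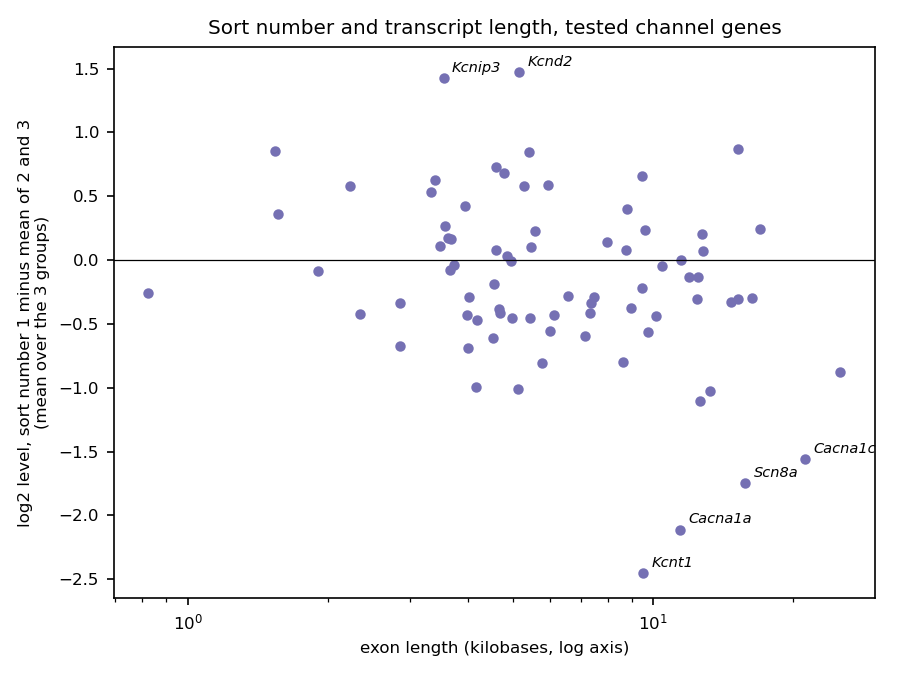
Log2 difference of the libraries numbered 1 from the mean of those numbered 2 and 3, averaged over the 3 groups, against exon length in kilobases (log axis), with 1 point for each of the 78 tested channel genes. Kcnt1, Cacna1a, Scn8a and Cacna1c, with 9.50 to 21.2 kb of exon, lie lowest, and Kcnd2 and Kcnip3 highest.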

How the data were processed

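RNA from 9 mouse samples, in 3 sorted groups of 3, was read on an Illumina HiSeq, according to the labels. The submitters' processing notes name the mm10 build, limma, Partek 8.0, STAR 2.5.3a and bcl2fastq, and give no order of steps. The gene counter, the annotation and the use of strand are not given in the sources used here. The deposited expression values were scaled by the authors to CPM plus an offset of 0.0001, which is inferred from the values, where 1 read makes a step of 0.0285 to 0.0344 CPM. Only 44.0% to 55.5% of the low values came out as whole reads within 0.02 reads, so a count test could not be used. A level of 3 reads is 0.0856 to 0.103 CPM, which covers counting error only, and the listed genes sum to 65.9% to 87.6% of the CPM total. The authors' second deposited table holds, per the file headers, ratios between groups with a p-value and a false discovery rate for each gene, and is quoted only as theirs.

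On the log2(CPM + 1) scale, 16143 genes with at least 1 CPM in at least 3 libraries were fitted in limma 3.58.1 (R 4.3.3) with 3 group means, trended and robust variances and 6 residual degrees of freedom. P-values were adjusted by the Benjamini-Hochberg method over all genes at 0.05. The procedure was also run on simulated data, whose settings and outcome are not given here. Deviations from group means correlated at 0.204 to 0.73 in the 9 same-numbered pairs of libraries and at -0.527 to 0.314 in the 18 other pairs. Pairs numbered 1 were at 0.582 to 0.73 and pairs numbered 3 at 0.204 to 0.224. CD133+Nestin+ replicate 2 and Nestin+ replicate 3, of different number, were at 0.314, so the ranges overlapped. The labels give the number as that of a sort and a passage, shared by 1 library of each group, and do not name a shared animal or day. The samples were taken as paired by number on both grounds. The fit of 3 group means, whose calls are reported first, leaves this pairing out. The blocked fit, which uses it, is given beside that fit where it changes a call or count. Positions and exon lengths are from GENCODE M21. All 84 genes were found there, and 26 overlap another gene of the table. Protein sequences were not analysed here, and 3 Kv pores that enter the fits and counts are not reported here by name.

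The channel genes, their roles and the marker and partner lists were chosen with earlier results of these data known. Values in every library are given, for each role, for up to 4 called genes of smallest F test p and for the gene of highest mean CPM. Other genes are named only from the lists. Alternatives left out each library, used the block, library weights, a plain prior, a pseudocount of 0.1, other filters (none, 5 CPM), quantile normalization or median centring, or fitted only the 6 libraries compared.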

Additional observations from a re-analysis of the deposited data

How the results depend on the processing

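Of the 18 calls in the 3 comparisons, 0 reversed under any alternative run, and the replicate block and the fit with no trend or robust prior kept all 18. The cause of the changes below was not tested, other than that the filter of 5 CPM leaves 49 channel genes to test. Between Nestin+ and CD133+ cells the 14 calls became 26 with the replicate block, 8 with the filter of 5 CPM, 35 with library weights, whose estimation stopped before converging, and 22 with the 6 libraries alone. Over all genes tested the calls were 11.9% in the fit reported and 19.2%, 13.3%, 25.9% and 15.8% under these alternatives, and for the channel genes 17.9% and 33.3%, 16.3%, 44.9% and 28.2%. The count lay between 8 and 22 with 1 library left out. Between CD133+Nestin+ and CD133+ cells the 2 calls in limma became 0 with a pseudocount of 0.1 and with the 6 libraries alone, and 1 with the filter of 5 CPM, median centring or quantile normalization; leaving out 1 library gave 0 to 2. Between CD133+Nestin+ and Nestin+ cells the 2 calls became 6 with the block (6.09% of all genes), and 1 with the filter of 5 CPM or the 6 libraries alone; leaving out 1 library gave 1 to 4. The 9 calls of the F test became 22 with the block and 31 with library weights, when 16.5% and 21.2% of all genes were called. With 1 library left out it lay between 5 and 15, at 15 without CD133+Nestin+ replicate 1 and at 5 without Nestin+ replicate 2 or 3.

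Both remaining alternatives to the fit were chosen after seeing the data. When CD133+Nestin+ replicate 2 was dropped from the fit with the replicate block, the counts were 37, 5 and 7 in the 3 comparisons and 34 in the F test, against 30.6%, 5.06%, 8.26% and 25.8% of all genes. With the libraries numbered 2 and 3 only, they were 15, 1 and 1, and 10, and 13 of the 17 calls still tested held. The replicate block changed no other call than those given beside the results. Genes near 1 CPM rest on few reads, since 1 read is 0.0285 to 0.0344 CPM, and a gene not called at 3 libraries a group is not shown to be unchanged.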
